A study of Mus musculus with 8 samples.

Results

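The expression of 10 genes that mark or specify lymphatic endothelium (*Prox1*, *Lyve1*, *Pdpn*, *Nr2f2*, *Gata2*, *Sox18*, *Foxc2*, *Reln*, *Ccl21a* and *Mrc1*) was examined in SV-LECs, named svLEC in the labels. The genes were found by symbol, 1 row each, among the 55471 genes of the count table. SV-LECs are mouse cells immortalized with SV40 and labelled as a lymphatic endothelial line from mesenteric adventitial tissue. They were either nontreated or given TGFβ1 at 10 ng/ml for 72 h, with 4 libraries per group, and both groups are the same line. The 4 samples of a group are technical replicates by the study's methods, so that SDs and p-values cover the spread between libraries and not between independent experiments. Total counts were between 19182616 and 26077972 in untreated and between 18952504 and 26386941 in TGFβ1-treated libraries. A count of 3 in a library, used as the floor of detection, was 0.113 to 0.162 CPM (the count scaled to a common normalized library size) and covers counting error only. The defining endothelial genes *Pecam1*, *Cdh5* and *Erg*, with at most 5, 2 and 0 reads per library, did not bear out the line's label. They were named after their values were seen. Of 27 pan-endothelial markers, 14 passed the filter on low counts and 13 did not. Among those that passed, *Kdr* and *Flt1* had 225 to 308 and 348 to 463 reads in untreated libraries. The line is called SV-LEC here by its label only.

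Lymphatic endothelial cells arise mostly from venous endothelium, in which the transcription factors SOX18 and NR2F2 (COUP-TFII) switch on *Prox1*, the master regulator that sets and maintains lymphatic fate. GATA2 and FOXC2 act with PROX1 where lymphatic valves and collecting vessels form. On the surface, LYVE1 binds hyaluronan, podoplanin (*Pdpn*) engages CLEC-2 on platelets to keep blood and lymph apart, and the mannose receptor (*Mrc1*) binds glycoproteins and lymphocytes. Lymphatic cells also secrete CCL21, which guides dendritic cells through CCR7, and reelin (*Reln*), a matrix glycoprotein best known from brain development.

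SV-LECs expressed 4 of the 10 genes and were at or near 0 reads for the other 6. *Pdpn*, *Gata2*, *Nr2f2* and *Foxc2* passed the filter on low counts. *Prox1*, *Lyve1*, *Sox18*, *Reln*, *Ccl21a* and *Mrc1* did not, and none of these reached more than 5 reads in any library. After TGFβ1, 3 of the 4 tested genes were lower and 1 was higher by the likelihood ratio test of edgeR with a false discovery rate (FDR) under 0.05. Among all 13818 genes tested, 38.0% were lower and 37.6% higher by the same rule, together 75.6%, so that a call was the usual outcome for a gene in this comparison. *Foxc2* rose 3.52-fold, *Nr2f2* fell by 0.95 and *Gata2* by 0.34 on the log2 scale, and *Pdpn* fell by 0.13. *Ccn2*, a known target of TGFβ1, rose by 2.06 on the log2 scale. Since RNA of whole cultures was sequenced, fewer cells that express a gene and less RNA of it per cell cannot be told apart.

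**Figure D1:**
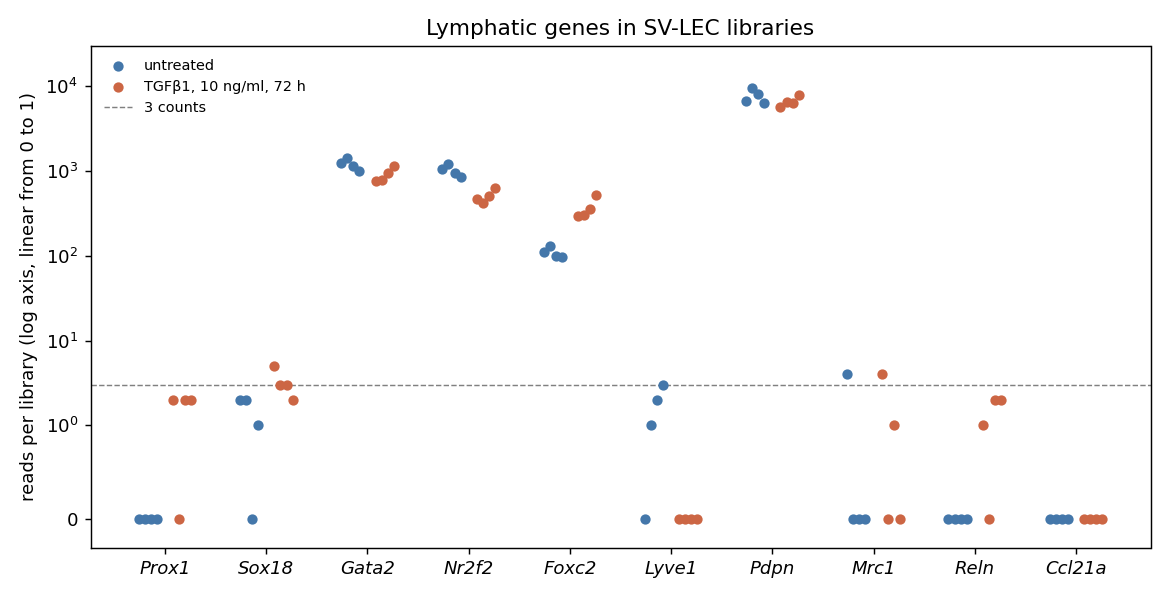
Reads per library for the 10 lymphatic genes, transcription factors at the left and surface or secreted proteins at the right, in 4 untreated (blue) and 4 TGFβ1-treated (orange) libraries, with 1 point per library on a log axis that is linear from 0 to 1. *Gata2*, *Nr2f2*, *Foxc2* and *Pdpn* lie between 96 and 9557 reads, and the other 6 genes lie between 0 and 5 reads, around the dashed line at 3 counts.

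*Prox1* (ENSMUSG00000010175, chromosome 1 of GRCm38, 190118035 to 190170714) had 0 reads in each of the 4 untreated libraries. The treated libraries 1 to 4 held 2, 0, 2 and 2 reads. Every value was under the floor, and the groups overlapped at 0 (exact two-sided permutation test of CPM, p = 0.143). Per length, 3 reads on *Prox1* corresponded to between 0.0546 and 0.0775 TPM, the read share per exonic length, so that a level above this was not seen in any library.

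*Lyve1* (ENSMUSG00000030787, chromosome 7, 110850607 to 110863239) had 0, 1, 2 and 3 reads in the untreated libraries and 0 in all 4 treated libraries. No library exceeded the floor and the groups overlapped (exact permutation test, p = 0.143). *Sox18* (ENSMUSG00000046470, chromosome 2, 181669836 to 181671640) had 2, 2, 0 and 1 reads in untreated and 5, 3, 3 and 2 reads in treated libraries. Treated library 1 was the only one above the floor (exact permutation test, p = 0.0571). With 1 library left out, the exact permutation p was 0.0286, the smallest possible, for *Lyve1* (without untreated library 1) and for *Sox18* (without treated library 4). Each of these omissions took out the library that overlapped the other group. The other omissions gave an exact permutation p of 0.143 to 0.257 for *Lyve1* and 0.0571 to 0.114 for *Sox18*.

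*Reln* (ENSMUSG00000042453, chromosome 5, 21884454 to 22344702) had no read in untreated libraries and 1, 0, 2 and 2 reads in treated libraries, also under the floor (exact permutation test, p = 0.143). *Mrc1* (ENSMUSG00000026712, chromosome 2, 14229392 to 14332057) had 4, 0, 0 and 0 reads in untreated and 4, 0, 1 and 0 reads in treated libraries, with 1 library above the floor in each group (exact permutation test, p = 0.714). *Ccl21a* (ENSMUSG00000094686, chromosome 4, 42772860 to 42773993) had 0 reads in all 8 libraries. Of the stretches of read length in its transcript, 61.3% are shared with other genes, among them *Ccl21b* and *Gm21541*, so that the counting step could have dropped reads from these stretches. Its other stretches are not shared and also gave no read, and *Ccl21b* was at 0 as well. Without the filter on low counts, the likelihood ratio test gave *Prox1*, *Reln* and *Lyve1* FDRs of 0.00972, 0.0201 and 0.0137 in edgeR, although no library held more than 3 reads of any of them.

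*Pdpn* (ENSMUSG00000028583, chromosome 4, 143267431 to 143299564), a mucin-type membrane glycoprotein, was the most abundant of the genes. The untreated libraries held 6799, 9557, 8199 and 6357 reads, or 328, 359, 358 and 322 CPM, and the treated libraries 5707, 6554, 6391 and 7933 reads, or 309, 319, 314 and 308 CPM. All treated libraries lay below all untreated ones, by a gap of 3.29 CPM between the nearest libraries, whereas the untreated libraries themselves spanned 322 to 359 CPM. The mean level went from 342 ± 19.5 to 313 ± 5.25 CPM (SD, n = 4), or -0.13 ± 0.0458 on the log2 scale (SE; edgeR FDR = 0.00701). Of all tested genes, 18.6% had a smaller absolute change.

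*Nr2f2* (ENSMUSG00000030551, chromosome 7, 70351944 to 70366735) encodes an orphan nuclear receptor of venous and lymphatic endothelium and of many mesenchymal tissues. It had 1072, 1229, 961 and 860 reads in untreated libraries, or 51.7, 46.2, 42.0 and 43.6 CPM. The treated libraries had 471, 419, 502 and 627 reads, or 25.5, 20.4, 24.7 and 24.3 CPM. The groups were separated by 16.5 CPM, several times the SD of either group. The mean fell from 45.8 ± 4.24 to 23.7 ± 2.27 CPM (SD, n = 4), or -0.95 ± 0.0805 on the log2 scale (SE; edgeR FDR = 3.12e-31), which exceeded in size the changes of 81.1% of tested genes. An antisense gene, *B130024G19Rik*, shares 6.63% of the read-length stretches of *Nr2f2*. It had 5 to 15 reads per library. Whether counting used strand is not stated, so that reads of the shared stretches may have been assigned to neither or to either gene.

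*Gata2* (ENSMUSG00000015053, chromosome 6, 88193891 to 88207032), a zinc finger factor of blood progenitors and endothelium that also binds at *Prox1* in lymphatic valves, had 60.1, 54.3, 50.2 and 50.4 CPM in untreated libraries (994 to 1446 reads). The treated libraries had 41.0, 38.3, 46.3 and 44.5 CPM (758 to 1146 reads). The groups did not overlap but came within 3.93 CPM of each other, about the SD within a group. The mean fell from 53.7 ± 4.63 to 42.5 ± 3.57 CPM (SD, n = 4), or -0.34 ± 0.0734 on the log2 scale (SE; edgeR FDR = 8.27e-06).

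*Foxc2* (ENSMUSG00000046714, chromosome 8, 121116171 to 121118895) is an intronless gene for a forkhead factor needed for lymphatic valves and active in paraxial mesenchyme. It had 112, 131, 99 and 96 reads in untreated libraries, or 5.40, 4.92, 4.32 and 4.87 CPM. The treated libraries had 294, 300, 354 and 527 reads, or 15.9, 14.6, 17.4 and 20.5 CPM. Every treated library was at least 9.21 CPM above every untreated one, and treated library 4 was the highest. The mean rose from 4.88 ± 0.439 to 17.1 ± 2.52 CPM (SD, n = 4), or 1.81 ± 0.125 on the log2 scale (SE; edgeR FDR = 1.27e-47). Among the 4 expressed genes, *Foxc2* varied most between treated libraries, with a coefficient of variation of 14.7% against 1.68% for *Pdpn*. In all 4 expressed genes the groups did not overlap, as was the case for 69.8% of all tested genes.

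**Figure D2:**
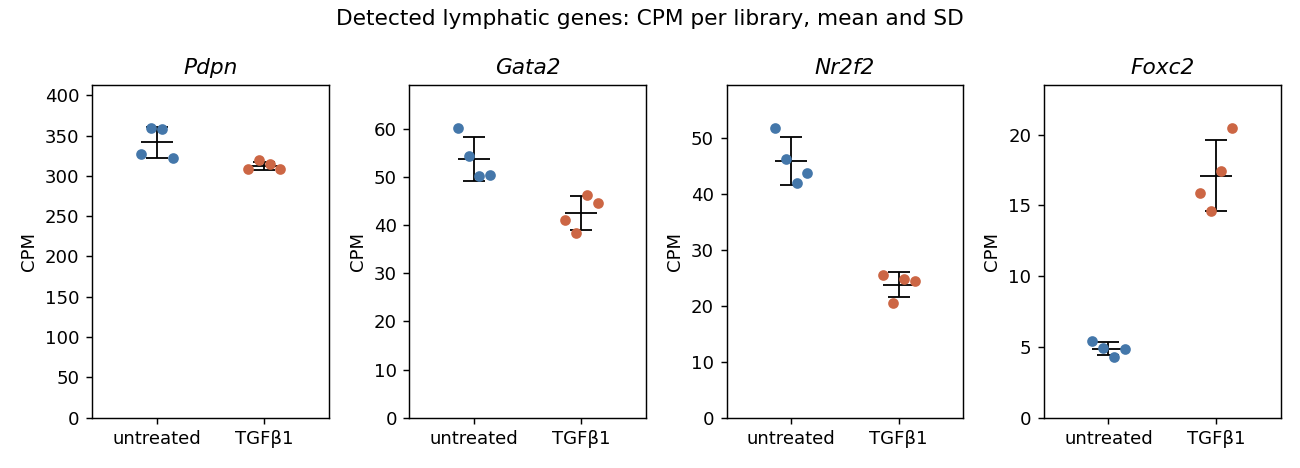
CPM per library of the 4 expressed lymphatic genes in untreated (blue) and TGFβ1-treated (orange) SV-LECs, with the mean and SD of 4 libraries in black and axes that start at 0. The treated points lie below the untreated points for *Pdpn*, *Gata2* and *Nr2f2* and above them for *Foxc2*.

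Levels of different genes were compared per exonic length, as TPM. In untreated cells the order was *Pdpn* at 767 ± 45.9 TPM, *Gata2* at 40.6 ± 3.33, *Nr2f2* at 21.7 ± 1.92 and *Foxc2* at 7.30 ± 0.642 TPM (SD, n = 4), and no neighbours in this order had overlapping libraries. *Pdpn* was above 99.0% of all tested genes and *Foxc2* above 25.6%. In treated cells *Pdpn* stayed first at 683 ± 13.2 TPM, followed by *Gata2* at 31.2 ± 2.45 and *Foxc2* at 24.9 ± 3.49 TPM, whose libraries overlapped. *Nr2f2* came last at 10.9 ± 1.05 TPM, below the lowest *Foxc2* library. By the longest transcript in place of the exonic length, treated *Foxc2* and *Nr2f2* were closer, at 18.7 and 16.8 TPM.

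The genes whose log2 CPM most resembled each expressed gene over the 8 libraries were *Kars* for *Pdpn* (Pearson's r = 0.985), *Cxcl5* for *Nr2f2* (r = 0.998), *Ehmt2* for *Gata2* (r = 0.995) and *BC031181* for *Foxc2* (r = 0.998). They were followed by *Arrdc3* and *Rrp15* for *Pdpn*, *Matn3* and *Pkn3* for *Nr2f2*, *Nipal3* and *Ccdc61* for *Gata2*, and *Zscan25* and *Esrra* for *Foxc2*. The 8 points fall into the 2 groups, so that these values describe mostly the difference between the groups.

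The starts of the genes that fell are shown beside that of *Prox1*, which lay under the floor, to let the regions before them be compared. Each is the 250 bases before an annotated start in RefSeq (GRCm38.p6), written 5′ to 3′. Capitals mark the letters AGATA or TGATA followed by A or G, which GATA factors bind, and CAGAC, which SMAD proteins bind, on either strand.
Pdpn, chr4:143299565-143299814, minus strand: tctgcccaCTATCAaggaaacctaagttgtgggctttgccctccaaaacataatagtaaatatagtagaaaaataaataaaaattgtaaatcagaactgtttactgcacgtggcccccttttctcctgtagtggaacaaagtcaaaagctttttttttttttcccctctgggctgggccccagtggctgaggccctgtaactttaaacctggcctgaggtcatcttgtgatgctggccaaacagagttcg
Nr2f2, chr7:70366747-70366996, minus strand: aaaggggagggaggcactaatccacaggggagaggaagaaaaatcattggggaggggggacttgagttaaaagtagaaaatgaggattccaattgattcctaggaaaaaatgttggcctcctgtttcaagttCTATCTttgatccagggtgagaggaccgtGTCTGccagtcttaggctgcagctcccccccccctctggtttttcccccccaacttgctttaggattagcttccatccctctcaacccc
Gata2, upstream start, chr6:88193641-88193890, plus strand: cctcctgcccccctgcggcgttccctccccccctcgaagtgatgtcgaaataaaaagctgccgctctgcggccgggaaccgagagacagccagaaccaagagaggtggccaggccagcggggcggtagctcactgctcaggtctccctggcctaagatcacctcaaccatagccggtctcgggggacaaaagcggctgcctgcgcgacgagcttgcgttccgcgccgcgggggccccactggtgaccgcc
Gata2, downstream start, chr6:88198414-88198663, plus strand: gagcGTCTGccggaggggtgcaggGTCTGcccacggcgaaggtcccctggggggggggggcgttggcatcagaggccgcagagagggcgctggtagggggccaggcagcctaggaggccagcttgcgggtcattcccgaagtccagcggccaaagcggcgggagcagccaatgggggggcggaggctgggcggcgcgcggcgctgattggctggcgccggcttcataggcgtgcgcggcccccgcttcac
Prox1, chr1:190170828-190171077, minus strand: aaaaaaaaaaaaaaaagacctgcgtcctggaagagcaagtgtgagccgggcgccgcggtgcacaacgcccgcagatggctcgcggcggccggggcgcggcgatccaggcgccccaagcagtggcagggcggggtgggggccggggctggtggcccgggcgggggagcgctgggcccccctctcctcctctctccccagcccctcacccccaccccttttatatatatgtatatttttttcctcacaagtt

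Of the 10 genes, 7 matched such a window, and *Lyve1*, *Sox18* and *Foxc2* were not shown. The windows of *Pdpn* and *Nr2f2* hold 1 GATA match each. *Nr2f2*, *Ccl21a* and the downstream start of *Gata2* hold 1, 1 and 2 SMAD matches, and neither set of letters occurs in the *Prox1* window shown. Over all 32851 promoter windows of this length, 26.5% hold a GATA match and 42.2% a SMAD match, so that these matches are common. The SOX letters AACAAT, present in 9.42% of windows, occur in none of the 9 windows of these genes. The nuclear receptor letters TGACCT, present in 14.0%, occur in that of *Pdpn* alone. CANNTG, the E-box, present in 66.2%, occurs in those of *Pdpn*, *Nr2f2*, *Reln*, *Ccl21a*, *Mrc1* and the *Prox1* window shown, and TATAAA, present in 12.4%, in the latter only. The windows of *Pdpn* and *Nr2f2* hold 2 and 1 CpG, and those of *Gata2* hold 22 and 24, against a median of 6, and that of *Prox1* holds 20. No match says only that the letters are not in this window.

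Related genes were measured to see which members of each family the line carried. Of 15 such genes, 9 were tested, and 3 were higher and 5 lower after TGFβ1, against 75.6% called over all genes tested. Their median log2 fold change was -0.14 against -0.0064 over all genes tested. The count of lower genes was 3 without untreated library 1 or treated library 3 and 4 with DESeq2. In the GATA family, *Gata6* was the highest per length at 66.5 TPM in untreated cells, above *Gata2*, *Gata4* at 32.0 TPM and *Gata3* at 15.2 TPM, and *Gata1* and *Gata5* had at most 3 reads. *Gata3* fell like *Gata2* (log2 change -0.75 ± 0.102, SE), *Gata6* fell by 0.14 on the log2 scale with overlapping groups, and *Gata4* was at -0.05 on the log2 scale without a call (edgeR FDR = 0.417). *Nr2f1*, the closest relative of *Nr2f2*, fell as well (log2 change -0.55 ± 0.125, SE), while *Nr2f6* rose by 0.45 with overlapping groups.

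The FOXC pair moved in opposite directions. *Foxc1*, which shares much of its role in vessels with *Foxc2*, fell from 6.80 ± 0.527 to 4.18 ± 0.568 CPM (SD, n = 4; log2 change -0.70 ± 0.123, SE; edgeR FDR = 1.97e-08). The ratio of *Foxc2* to *Foxc1* in TPM was 1.38 to 1.72 in untreated libraries and 7.99 to 9.42 in treated libraries. For *Nr2f2* to *Nr2f1* the ratio was 2.99 to 3.12 in untreated and 1.98 to 3.06 in treated libraries, which overlapped.

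The relatives of the genes at or near 0 reads were divided. *Sox17* had 0 reads and *Sox7* at most 3 reads in every library, so that all 3 SOXF genes were at or near 0. *Ccl19* and *Ccl21b*, which encode the other CCR7 ligands, had 0 reads. *Prox2* was expressed at 5.52 TPM in untreated cells and fell by 0.29 on the log2 scale (edgeR FDR = 0.0212), with overlapping groups. *Mrc2*, an endocytic collagen receptor of mesenchymal cells related to *Mrc1*, was at 95.0 TPM and rose by 0.33 ± 0.0670 on the log2 scale (SE). *Cd44*, the widespread hyaluronan receptor related to *Lyve1*, rose from 83.4 ± 5.08 to 331 ± 13.6 CPM (SD, n = 4; log2 change 1.99 ± 0.0509, SE), with 76.5 to 88.7 CPM in untreated and 312 to 344 CPM in treated libraries.

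Receptors, linkers and processing enzymes of the same proteins were then examined. Of 13 genes, 10 were tested, 4 were higher and 5 lower, with a median log2 fold change of 0.0017. Over all genes tested, 37.6% were higher and 38.0% lower. Ezrin, moesin and radixin tie podoplanin to actin. *Ezr* fell from a mean of 917 to 355 CPM (log2 change -1.37 ± 0.0645, SE), *Rdx* fell from 276 ± 7.48 to 172 ± 4.38 CPM, and *Msn* rose from 1087 ± 48.5 to 1707 ± 41.1 CPM (SD, n = 4). For these genes the groups did not overlap, as was the case for 69.8% of all tested genes. *Clec1b*, which encodes CLEC-2, had 0 reads, and *Ccr7* had at most 3.

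Of the reelin receptors, *Vldlr* fell from 119 ± 3.91 to 39.7 ± 2.35 CPM (SD, n = 4; log2 change -1.59 ± 0.0525, SE). *Lrp8* had 3.10 and 3.57 CPM and was not called (edgeR FDR = 0.179), and *Dab1*, the adaptor that relays the signal, had 0 reads. Among proteases able to cut reelin, *Adamts4* and *Adamts2* rose by 0.65 and 0.57 and *Adamts5* fell by 1.75 on the log2 scale. *Ackr4*, a scavenging receptor for CCL19 and CCL21, went from 4 to 6 reads in untreated to 17 to 35 reads in treated libraries (log2 change 2.46 ± 0.383, SE; edgeR FDR = 4.48e-13).

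Genes of lymphatic growth and vessel formation gave a wider view of the program. Of 37 genes, 29 were tested, 20 were higher and 6 lower after TGFβ1, with a median log2 fold change of 0.44. Over all genes tested, 37.6% were higher and 38.0% lower, with a median log2 fold change of -0.0064. *Flt4*, which encodes the VEGFC receptor VEGFR3 and depends on PROX1 in lymphatic cells, was expressed where *Prox1* was under the floor, at 416 to 590 reads in untreated and 550 to 755 reads in treated libraries. It rose from 21.6 ± 1.23 to 29.3 ± 0.407 CPM (SD, n = 4; log2 change 0.44 ± 0.0593, SE). *Itgb1*, the integrin subunit with the highest level of the list, rose by 0.47 on the log2 scale. The VEGFR3 coreceptor *Nrp2* rose by 0.41 and *Kdr* (VEGFR2) by 0.93 on the log2 scale.

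Of the ligands, *Vegfc* had 23 to 37 reads in untreated and 256 to 440 reads in treated libraries and rose (log2 change 3.69 ± 0.185, SE), and *Vegfd* fell from 49.4 ± 2.88 to 22.3 ± 0.585 CPM (SD, n = 4). *Ccbe1* and *Adamts3*, which process VEGFC, rose by 1.61 and 0.36. Among valve genes, *Nfatc1* rose by 1.98, *Efnb2* by 1.74 and *Klf2*, a flow-responsive factor, by 1.03 on the log2 scale. *Gja1*, *Celsr1* and *Vangl2* fell by 0.72, 1.72 and 0.30, and *Gja4* and *Itga9* were below the filter with 0 to 7 and 1 to 14 reads. *Hhex*, a homeobox factor upstream of *Prox1* and *Flt4*, rose by 1.23. *Tie1* had 0 reads.

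The lymphatic and endothelial labels were checked with further marker genes, some of which also belong to the lists above. Of 20 lymphatic endothelial markers, 11 were tested, 6 were higher and 5 lower, and 9 were below the filter. Over all genes tested, 75.6% were called. The 20 markers had a median level of 0.393 TPM in untreated cells. Their summed level was 1660 to 1718 CPM in untreated and 1300 to 1450 CPM in treated libraries, of which *Prss23*, a secreted protease, made up 1030 ± 32.6 and 940 ± 69.1 CPM (SD, n = 4). *Maf*, a lymphatic transcription factor also found in other cells, fell from 196 ± 12.8 to 70.3 ± 4.86 CPM, and *Stab1* rose from 0.278 ± 0.0403 to 5.55 ± 0.914 CPM (SD, n = 4). *Mmrn1*, a selective lymphatic marker, had 9 to 15 reads in untreated and 0 to 2 in treated libraries and was below the filter.

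Of 27 pan-endothelial markers, 14 were tested, 8 were higher and 3 lower, against 75.6% called over all genes tested. The median log2 fold change was 0.34 against -0.0064 over all genes tested, and 13 markers were below the filter. The defining endothelial genes were among the latter. *Erg*, *Tie1* and *Clec14a* had 0 reads in all 8 libraries, *Cdh5* (VE-cadherin) had 0 to 2, *Pecam1* (CD31) 1 to 5, *Cldn5* and *Icam2* 0 to 1 and *Emcn* 0 to 1 reads. *Cd34*, *Eng*, *Ets1* and *Flt1*, which other cells also express, were well detected, at 555, 62.0, 174 and 17.6 CPM in untreated cells. Also tested were *Kdr*, *Fli1* and *Egfl7*, with 225 to 308, 152 to 208 and 113 to 164 reads in untreated libraries. *Esam*, *Ecscr* and *Mmrn2* had 53 to 81, 19 to 39 and 10 to 25 reads in untreated libraries and were tested as well. *Rasip1* had the largest change, with 18 to 26 reads in untreated and 1 to 5 reads in treated libraries. The summed level of the list was 824 to 870 CPM in untreated and 753 to 797 CPM in treated libraries. The label of the line as lymphatic endothelial was therefore not borne out by *Prox1*, *Lyve1*, *Pecam1*, *Cdh5* or *Erg*. In contrast, *Pdpn*, *Flt4*, *Nr2f2*, *Gata2*, *Foxc2* and *Maf* were present, and 14 of the 27 pan-endothelial markers passed the filter.

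Because *Pdpn* also marks mesothelium and *Lyve1* and *Mrc1* mark tissue macrophages, markers of these cells were read beside them. All 12 mesothelial markers passed the filter, with a median of 168 TPM in untreated cells against 25.8 TPM over all tested genes. *Upk1b* was at 1306 TPM, *Gpm6a* at 844, *Upk3b* at 621, *Msln* (mesothelin) at 458 and *Wt1* at 127 TPM. *Krt8* and *Krt18* were near the floor in untreated libraries, at 2 to 12 and 2 to 8 reads, with 17 to 35 and 16 to 47 reads in treated ones. After TGFβ1, 9 of the 12 markers were lower and 3 higher (*Krt8*, *Krt18* and *Nkain4*). *Nkain4* rose by only 0.16 on the log2 scale, with overlapping groups (edgeR FDR = 0.0460). Over all genes tested, 38.0% were lower and 37.6% higher, with a median log2 fold change of -0.0064, against -0.88 for the 12 markers. Their summed level was 2917 to 3140 CPM in untreated and 1065 to 1208 CPM in treated libraries, beside the falls of *Nr2f2*, *Gata2* and *Pdpn*, and its part in these falls was not tested. Of 16 macrophage markers, 13 were below the filter and *Adgre1*, *Tyrobp*, *C1qa*, *C1qb* and *C1qc* had 0 reads. *Cd68*, *Cd14* and *Csf1r* were tested and higher, as were 37.6% of all genes tested. The summed level of the macrophage list was 15.8 to 18.8 CPM in untreated and 31.9 to 34.2 CPM in treated libraries.

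**Figure D3:**
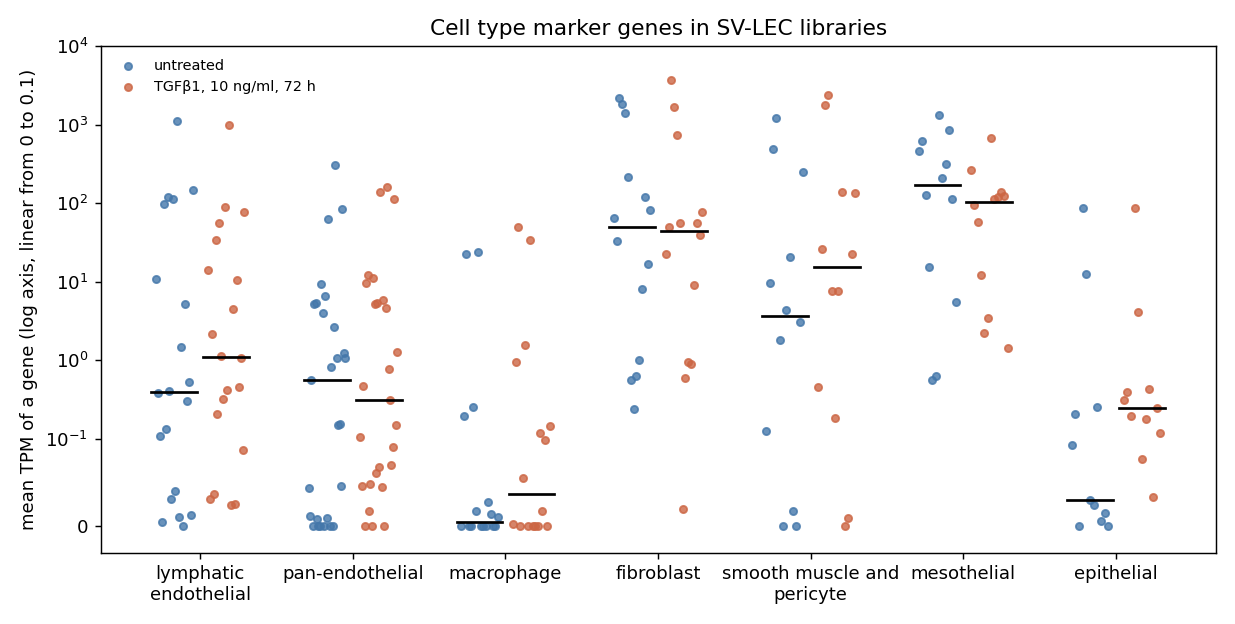
Mean TPM of each marker gene over 4 untreated (blue) or 4 TGFβ1-treated (orange) libraries, by the cell type it marks, on a log axis that is linear from 0 to 0.1, with a black line at the median of each list. The medians lie at 0.570 TPM or below for the untreated pan-endothelial, lymphatic endothelial and macrophage lists and at 168 TPM for the untreated mesothelial list.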

How the data were processed

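RNA of 4 untreated and 4 TGFβ1-treated SV-LEC samples was sequenced by the authors from stranded poly(A) libraries with single-end reads of 75 bases. The authors deposited raw counts per gene. The submitters' processing notes name bcl2fastq 2.20.0.422, STAR 2.7.3a, featureCounts 1.5.1 and GRCm38. The annotation release and the use of strand or multi-mapped reads are not given in the sources used here. Total counts were 18952504 to 26386941 per library.

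The study's design was followed. edgeR 4.0.16 was run in R 4.3.3 as follows. The filterByExpr defaults removed low genes, libraries were scaled by TMM, and groups were compared with glmFit and glmLRT, with the Benjamini-Hochberg adjustment over all 13818 genes tested and an FDR threshold of 0.05. Standard errors came from the fitted negative binomial weights. Members below the filter were compared by exact two-sided permutation of their CPM, for which 0.0286 is the smallest p. CPM used TMM-normalized sizes. TPM used exonic union lengths of GENCODE M21 (GRCm38), which matched 55230 genes. Shared stretches of 75 bases were counted on both strands of its transcripts. Promoters came from RefSeq on GRCm38.p6. Protein sequences were not used here. The pipeline was tested on simulated data. There, 200 of 13638 genes were changed. Of the calls of the likelihood ratio test, 8.25% fell on unchanged genes, against 5.03% for the quasi-likelihood test and 5.61% for DESeq2. The share for the SV-LEC libraries, in which 75.6% of tested genes were called, was not tested.

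The members, lists and tests were chosen with earlier results of these data known. Named genes were the members, all their relatives, the gene of each other list with the highest mean CPM, the called gene with the largest change, and the genes most correlated with each expressed member. Other list genes, those under the filter such as *Mmrn1* and *Erg* among them, were named to illustrate their list after their values were seen. Alternatives were the quasi-likelihood test, DESeq2 1.42.0, its size factors, total counts, no filter, 1 CPM in 4 libraries, a replicate block, a prior count of 2, the longest transcript, and each library left out.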

Additional observations from a re-analysis of the deposited data

Results flagged for a closer look

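*Mrc1* in untreated SV-LECs had 4 reads in library 1 and 0 in the other libraries, so that the gap of this library to the others was the whole range of the group (a ratio of 1, above the critical value of 0.829 for 4 libraries). All libraries were close to the floor of 3 counts, and any group with reads in 1 library alone has this ratio, as *Gata1* and *Sox7* also had.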

How the results depend on the processing

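The direction and the call of *Pdpn*, *Nr2f2*, *Gata2* and *Foxc2* were the same under all 8 alternatives with all libraries and with each library left out. The log2 fold change of *Pdpn* was between -0.20 and -0.12 under the alternatives (-0.16 to -0.11 with a library left out), that of *Nr2f2* between -1.02 and -0.94, that of *Gata2* between -0.40 and -0.32 and that of *Foxc2* between 1.75 and 1.83. Without the filter on low counts, 3 members in place of 1 were higher and 4 in place of 3 were lower. The quasi-likelihood test without the filter gave the same 3 and 4 (an alternative chosen after seeing the data). Also without the filter, 7 macrophage markers in place of 3 and 4 epithelial markers in place of 0 were higher. A filter of 1 CPM in 4 libraries left 1 mesothelial marker higher in place of 3, since *Krt8* and *Krt18* were no longer tested. The count was 2 with the quasi-likelihood test, total counts, no filter or the replicate block. It was 2 to 3 with a library left out. With a library left out, the count of related genes that were lower was 3 to 5, and it was 3 without untreated library 1 or treated library 3.

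Deviations of same-numbered libraries correlated at -0.193 to -0.0336, so that no shared deviation was seen. This does not settle whether the replicate numbers pair the samples. With the replicate block, the log2 change of *Pdpn* was -0.13 (edgeR FDR = 0.00906), 1 member was higher and 3 were lower, and 5075 genes were higher and 5077 lower. The block changed none of the 4 calls. The difference in *Mrc1* was -0.0318 to 0.0664 CPM with a library left out and changed sign without treated library 1 (-0.0318). The exact permutation p was 0.0286, the smallest possible, for *Prox1* and *Reln* without treated library 2, for *Lyve1* without untreated library 1 and for *Sox18* without treated library 4. By the longest transcript the untreated order was the same as by exonic length. The 6 members at or near the floor are limited by depth.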

Other observations

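Markers of mesenchymal cells ranged widely in level. The median in untreated cells was 49.2 TPM for fibroblast and 3.72 TPM for smooth muscle and pericyte markers, against 25.8 TPM over all tested genes. The medians of these lists include their genes below the filter, whereas the value over all tested genes does not. Of 14 fibroblast markers, 12 were tested, 4 were higher and 4 lower, with a median log2 fold change of -0.061. Over all genes tested, 75.6% were called. *Col1a2*, the highest at 5497 ± 473 and 5195 ± 222 CPM, was not called (edgeR FDR = 0.206). *Col1a1* rose from 3459 ± 611 to 6057 ± 530 CPM and *Postn* from 36.3 ± 4.78 to 85.8 ± 3.12 CPM, while *Dcn* fell from 312 ± 11.7 to 83.0 ± 6.48 CPM and *Pdgfra* from 160 ± 10.5 to 57.8 ± 3.91 CPM (SD, n = 4). *Lum* and *Dpt* were below the filter, with 0 to 9 and 3 to 11 reads. Of 12 smooth muscle and pericyte markers, 9 were tested, 8 were higher and 1 (*Smtn*) was lower. Their median log2 fold change was 1.80 against -0.0064 over all genes tested, of which 37.6% were higher and 38.0% lower. *Tagln*, the highest of them, rose by 0.99 on the log2 scale, *Actg2* by 2.90, *Notch3* by 2.79 and *Acta2* by 1.89. *Rgs5*, *Kcnj8* and *Abcc9* were below the filter with 0 to 7, 0 to 1 and 0 to 2 reads.

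Of 11 epithelial markers, 9 were below the filter, *Cdh1* and *Epcam* among them with at most 21 and 7 reads. *Krt7* fell by 1.57 on the log2 scale, and *Krt14*, at 37.1 CPM in untreated cells, was not called (log2 change 0.07, edgeR FDR = 0.353).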
